A study of Homo sapiens with 9 samples.

Results

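The mRNAs of 10 amino acid transporter genes were followed in MDA-MB-231 cells, a human triple-negative breast cancer cell line, after knockdown of ASAH1. ASAH1 encodes acid ceramidase, the lysosomal enzyme that splits ceramide into sphingosine and a fatty acid. The genes were SLC7A11, SLC7A5, SLC3A2, SLC7A1, SLC6A9, SLC1A4, SLC1A5, SLC38A1, SLC38A2 and SLC43A1. They were chosen by name, with earlier results of these data known, and all 10 were found among the 26485 genes listed. Cells stably expressing a nonspecific (NS) shRNA, ASAH1 shRNA #1 or ASAH1 shRNA #2 gave 3 libraries each, 9 in all, from cells grown in DMEM with fetal bovine serum. No other allele or agent was named in the labels. The labels call the libraries of a group biological replicates without saying that the cell lines were derived separately, so p-values measure the spread between these libraries, which may be technical. The same NS shRNA libraries served both comparisons with an ASAH1 hairpin.

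Amino acids cross the plasma membrane through solute carriers (SLC proteins), each of which moves its own range of amino acids. Some are uniporters, and some are sodium-coupled importers that concentrate amino acids in the cell. Others are exchangers that take up an amino acid while releasing another. SLC7A11 and SLC7A5 are light chains that reach the membrane only when joined to the heavy chain SLC3A2. Many genes for these proteins are known targets of ATF4, a transcription factor of the amino acid response, which binds a short DNA element named the C/EBP-ATF response element.

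The letters TGATGNAAN, the core of that element, were searched on both strands of RefSeq promoter windows (GRCh38.p14) that run from 250 bases before to 50 bases after a transcription start. No other motif was searched. Windows were found for 9 of the 10 genes (16 windows, since some genes have several starts), and 5 windows of 5 genes held a match. Over all 35116 windows, 3.61% held one. The 5 stretches that held a match are shown, with the matched letters in capitals. All 10 genes rose in both comparisons below, so genes with and without a match cannot be contrasted here. SLC7A11 had no window, and letters outside the windows were not searched. The stretches are read 5′ to 3′ on the strand of the gene. The position of the first matched base is counted from the start of that window's transcript.

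SLC1A4: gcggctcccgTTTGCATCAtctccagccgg

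SLC3A2: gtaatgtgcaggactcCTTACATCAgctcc

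SLC38A1: cagacccgaaTGATGAAAAgggatcagcta

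SLC7A1: ggcgcactgcTGATGAAACctggcgccgga

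SLC1A5: aggaagtggcTGATGCAAGctgtccagggt

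The SLC1A4 stretch lies at chr2:64989381-64989410 on the plus strand, with the match at position -8. That of SLC3A2 is at chr11:62881719-62881748 on the plus strand, with the match at position 37. In both, the letters are those of the opposite strand. The SLC38A1 stretch is at chr12:46266501-46266530 on the minus strand (position -4), and that of SLC7A1 at chr13:29595662-29595691 on the minus strand (position 8). That of SLC1A5 is at chr19:46784892-46784921 on the minus strand (position -97). Only the SLC7A1 stretch spans the end where its GENCODE gene begins, and the other stretches lie inside their genes. A match is a description of letters and not of binding, and 4 genes with windows (SLC7A5, SLC6A9, SLC38A2 and SLC43A1) had no match in theirs.

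Reads on genes ran from 30989598 to 34867548 per library with NS shRNA, from 23806003 to 39791698 with shRNA #1 and from 35653318 to 49659106 with shRNA #2. The 10 transporters had between 457 and 100974 reads in each library, so all passed the filter on low values. Levels are given below as CPM, reads per 1000000 reads of the library, scaled by the TMM method over all 9 libraries. ASAH1 itself was at 134 to 136 CPM with NS shRNA, 38.4 to 41.2 with shRNA #1 and 21.1 to 22.5 with shRNA #2. Of the markers of the line, VIM (1251 to 2082), CD44 (701 to 861), AXL (980.5 to 1337) and EGFR (84.2 to 279) were present, and ESR1 and PGR were at 0.0810 CPM or lower. ERBB2, which is low in this type of tumor, was present too, at 59.0 to 102. With NS shRNA it was at 96.0 to 102, within the range of EGFR in the same libraries (84.2 to 127). Markers of other cells, PTPRC, PECAM1 and ALB, summed to 2.90 to 3.35 CPM with NS shRNA, 1.52 to 2.63 with shRNA #1 and 1.28 to 2.00 with shRNA #2, nearly all of it PECAM1, so they were near 0 in every group.

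All 10 transporter mRNAs were higher with ASAH1 shRNA #1 than with NS shRNA, as were all 10 with ASAH1 shRNA #2 (limma, adjusted p below 0.05). Among all genes tested, 32.8% were called higher with shRNA #1 and 33.5% with shRNA #2. Since the 10 genes were chosen with earlier results known, these counts describe them and do not test them as a set. A change of more than 1.5-fold was reached by 7 of the 10 with shRNA #1 (15.0% of all genes) and by 9 of the 10 with shRNA #2 (14.8% of all genes). The weakest of these calls, SLC43A1 with shRNA #2, depended on single libraries (its values without them are given with the gene). The median log2 fold change of the 10 genes was 1.14 with shRNA #1 and 1.28 with shRNA #2, against 0.00 and 0.01 over all genes tested. None was lower, which follows from all 10 being called higher. The count was 0 by limma, by edgeR and by DESeq2 in each comparison, and also 0 at an unadjusted p under 0.05. The deposited normalized counts of the 3 hairpin libraries lay above those of the 3 NS shRNA libraries without overlap for all 10 genes in each comparison. Of all genes, 34.5% lay wholly above and 34.7% wholly below NS shRNA with shRNA #1, and 35.1% and 34.8% with shRNA #2. In such bulk RNA, more transcript per cell and a larger share of cells with the transcript cannot be told apart.

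**Figure D1:**
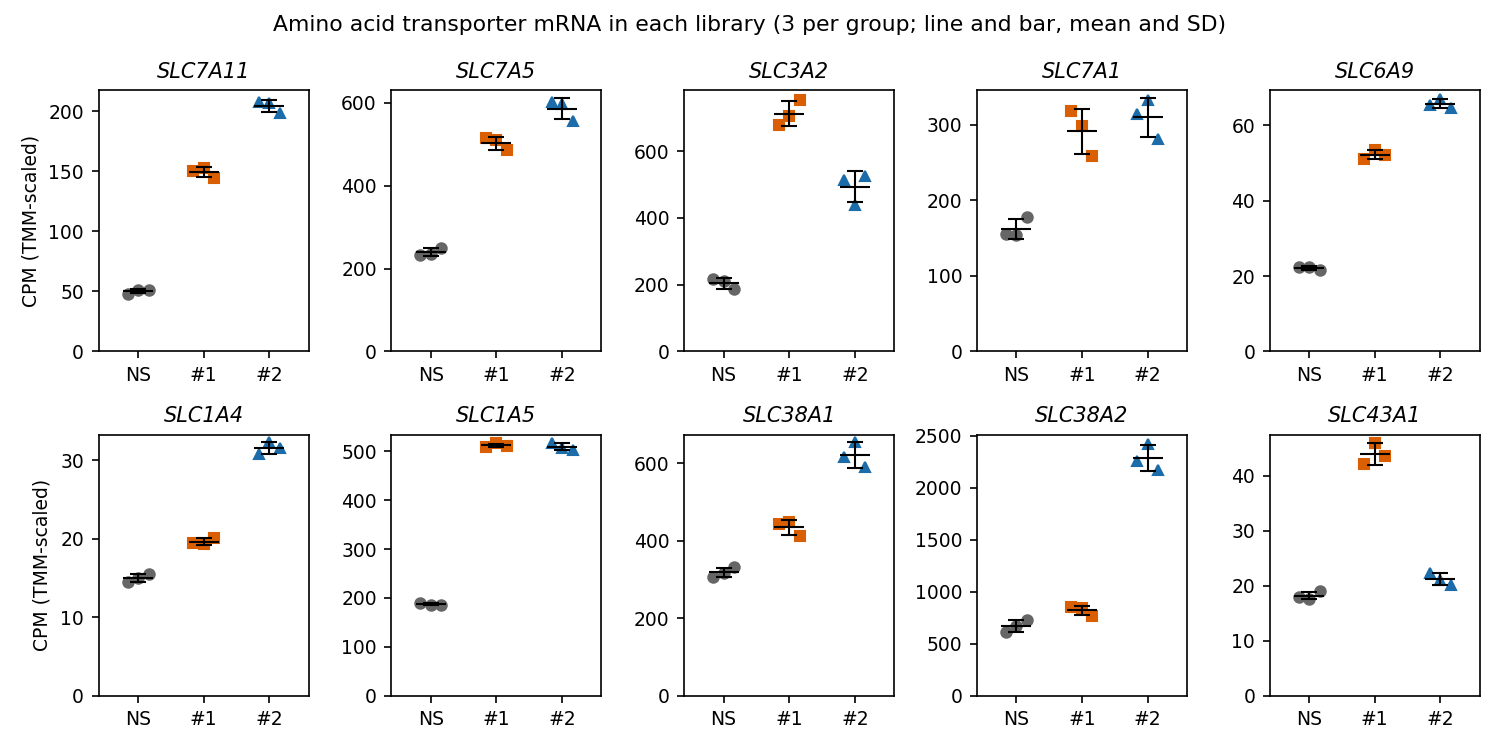
Level of each of the 10 transporter mRNAs in each library, in TMM-scaled CPM on a linear axis from 0, for NS shRNA (circles), ASAH1 shRNA #1 (squares) and ASAH1 shRNA #2 (triangles). Horizontal lines and bars are the mean and SD of 3 libraries, and for SLC7A11 the NS shRNA libraries sit between 48.1 and 51.5, below all shRNA #1 libraries (144 to 153) and all shRNA #2 libraries (199 to 208).

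SLC7A11 is the cystine-glutamate exchanger of the plasma membrane and brings in the cystine used for glutathione (hg38, chr4:138164097-138242349, minus strand, 12 exons in the canonical GENCODE transcript). Its level in the NS shRNA libraries was 48.1, 51.5 and 50.9 CPM. With shRNA #1 the levels were 151, 153 and 144, and with shRNA #2 they were 208, 207 and 199. The 3 groups formed 3 separate steps. The log2 fold change was 1.57 ± 0.05 (SE, n = 3 per group, adjusted p = 2.04e-08, limma) with shRNA #1 and 2.03 ± 0.06 (adjusted p = 2.86e-09, limma) with shRNA #2. In the shRNA #2 comparison, 1.05% of all genes tested had a higher fold change than SLC7A11.

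SLC3A2 (CD98 heavy chain) is the common partner of both light chains and carries no amino acids by itself (chr11:62856004-62888880, plus strand, 9 exons). Its levels were 216, 210 and 186 CPM with NS shRNA. They were 679, 704 and 753 with shRNA #1, and 513, 439 and 525 with shRNA #2. Here the order of the hairpins was the opposite of that for SLC7A11, since every shRNA #1 library was above every shRNA #2 library. The log2 fold change was 1.80 ± 0.06 (adjusted p = 2.70e-08, limma) with shRNA #1, the highest among the 10 genes in that comparison, and 1.28 ± 0.08 (adjusted p = 3.36e-07, limma) with shRNA #2.

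SLC7A5 (LAT1) exchanges large neutral amino acids such as leucine, usually against intracellular glutamine (chr16:87830023-87869507, minus strand, 10 exons). The NS shRNA libraries held 233, 236 and 250.4 CPM. Those with shRNA #1 held 514, 509 and 485, and those with shRNA #2 held 603, 597 and 557. Levels with both hairpins were thus above all NS shRNA libraries, with shRNA #2 the higher. In the test the log2 fold change was 1.06 ± 0.05 (adjusted p = 1.47e-07, limma) with shRNA #1 and 1.29 ± 0.05 (adjusted p = 3.27e-08, limma) with shRNA #2. Of the near-identical copies of SLC7A5, SLC7A5P1 had 0 reads in all libraries, and SLC7A5P2 was at 0.568 to 1.86 CPM. How reads shared by SLC7A5 and these copies were assigned was not tested.

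SLC1A5 (ASCT2) is a sodium-dependent exchanger that takes up glutamine (chr19:46774883-46788594, minus strand, 8 exons). It was at 190.1, 187 and 186 CPM with NS shRNA. The libraries with shRNA #1 were at 509, 516 and 511, and those with shRNA #2 at 517, 507 and 504. The hairpin libraries overlapped each other and were far above the NS shRNA libraries, with a log2 fold change of 1.44 ± 0.04 (adjusted p = 8.32e-09, limma) with shRNA #1 and 1.45 ± 0.05 (adjusted p = 7.11e-09, limma) with shRNA #2.

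SLC1A4 (ASCT1), of the same family, exchanges alanine, serine, cysteine and threonine (chr2:64988477-65023865, plus strand, 8 exons). It was at 14.4, 14.9 and 15.5 CPM in the NS shRNA libraries. The shRNA #1 libraries were at 19.4, 19.3 and 20.1, and the shRNA #2 libraries at 30.8, 32.3 and 31.6. All 3 groups were apart, but the step from NS shRNA to shRNA #1 was small, with a log2 fold change of 0.38 ± 0.07 (adjusted p = 0.000637, limma) against 1.08 ± 0.07 (adjusted p = 4.10e-07, limma) with shRNA #2.

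SLC38A1 (SNAT1) and SLC38A2 (SNAT2) are sodium-coupled importers of small neutral amino acids such as glutamine and alanine, and the genes lie near each other on chromosome 12 (SLC38A1 at chr12:46183063-46270017 and SLC38A2 at chr12:46358188-46372773, both on the minus strand, with 17 and 16 exons). SLC38A1 was at 307, 317 and 331 CPM with NS shRNA, at 444, 448 and 413 with shRNA #1 and at 617, 656 and 591 with shRNA #2. Its log2 fold change was 0.44 ± 0.05 (adjusted p = 5.12e-05, limma) with shRNA #1 and 0.97 ± 0.06 (adjusted p = 2.41e-07, limma) with shRNA #2. The 3 groups did not overlap.

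SLC38A2 is itself induced when amino acids run short in many cell types. It was at 614, 672 and 725 CPM with NS shRNA, at 849.8, 841 and 766 with shRNA #1, and at 2253, 2419 and 2174 with shRNA #2. The shRNA #2 libraries stood far above the other 6, whereas the lowest shRNA #1 library was little above the highest NS shRNA library. The log2 fold change was 0.28 ± 0.07 with shRNA #1 (adjusted p = 0.00503, limma) and 1.77 ± 0.07 with shRNA #2 (adjusted p = 1.94e-08, limma). Of all genes tested, 29.9% had a higher fold change than SLC38A2 with shRNA #1, and 1.52% with shRNA #2.

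SLC7A1 (CAT1) imports the cationic amino acids arginine and lysine (chr13:29509414-29595688, minus strand, 13 exons). Its levels were 155, 154 and 178 CPM with NS shRNA, 318, 298 and 259 with shRNA #1, and 315, 334 and 282 with shRNA #2. The hairpin libraries overlapped each other and were all above the NS shRNA libraries. Its log2 fold change was 0.84 ± 0.08 (adjusted p = 1.90e-05, limma) with shRNA #1 and 0.94 ± 0.08 (adjusted p = 2.22e-06, limma) with shRNA #2.

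SLC6A9 (GLYT1) is a sodium- and chloride-dependent glycine transporter (chr1:43991500-44031467, minus strand, 14 exons). It was at 22.4, 22.5 and 21.6 CPM with NS shRNA, at 51.0, 53.4 and 52.3 with shRNA #1 and at 65.6, 67.0 and 64.7 with shRNA #2. These were 3 separate steps with little spread in each. Here the log2 fold change was 1.23 ± 0.05 (adjusted p = 1.12e-07, limma) with shRNA #1 and 1.57 ± 0.06 (adjusted p = 1.59e-08, limma) with shRNA #2.

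SLC43A1 (LAT3) is a uniporter of branched-chain amino acids and phenylalanine and needs no heavy chain (chr11:57484534-57515780, minus strand, 15 exons). Its levels were 18.0, 17.6 and 18.9 CPM with NS shRNA, 42.0, 46.0 and 43.6 with shRNA #1, and 22.4, 21.1 and 20.2 with shRNA #2. The shRNA #1 libraries stood apart, and the shRNA #2 libraries lay just above the NS shRNA libraries. The log2 fold change was 1.26 ± 0.06 (adjusted p = 2.65e-07, limma) with shRNA #1 and 0.23 ± 0.07 (adjusted p = 0.0207, limma) with shRNA #2. This last call was lost without NS shRNA replicate 1 (0.22, adjusted p = 0.0544, limma), without NS shRNA replicate 2 (0.20, adjusted p = 0.0770, limma) and without shRNA #2 replicate 1 (0.19, adjusted p = 0.0906, limma). It was also lost with upper quartile rescaling (0.18, adjusted p = 0.0528, limma).

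**Figure D2:**
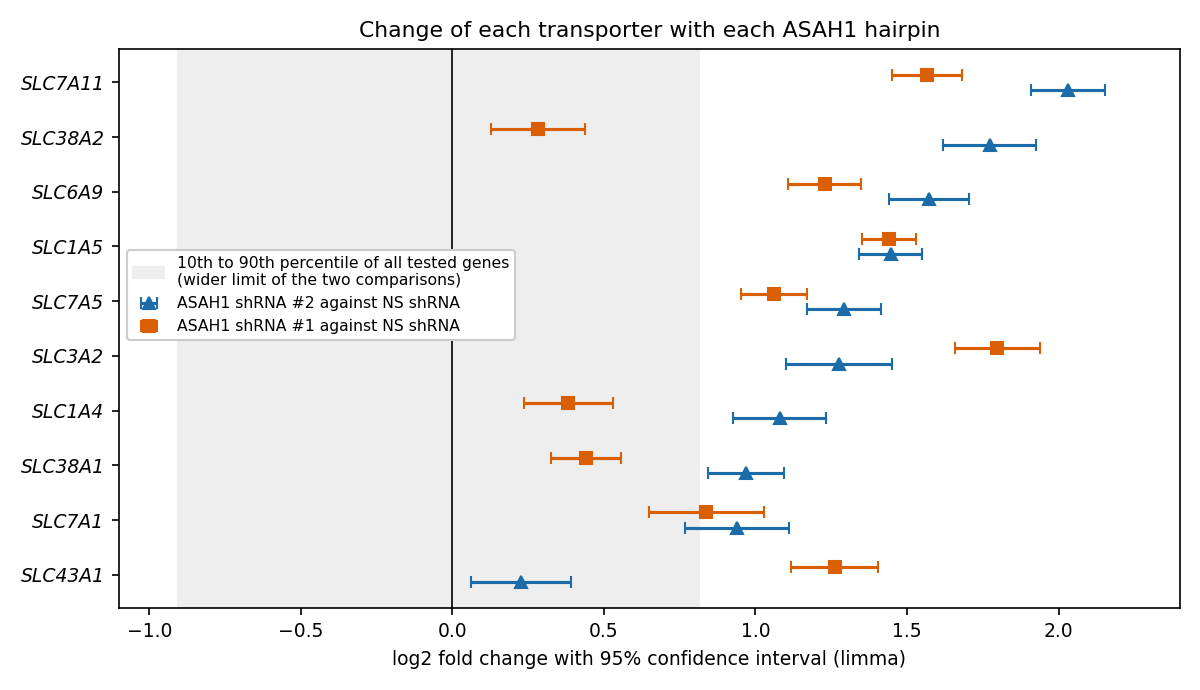
Log2 fold change of each transporter with ASAH1 shRNA #1 (squares) and ASAH1 shRNA #2 (triangles) against NS shRNA, with the 95% confidence interval from limma (n = 3 per group), genes ordered by the shRNA #2 value. The grey band spans the 10th to 90th percentile of all genes tested, and SLC38A2, SLC1A4 and SLC38A1 with shRNA #1 (0.28, 0.38 and 0.44) and SLC43A1 with shRNA #2 (0.23) are the values that lie wholly inside it.

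The hairpins were then compared with each other directly, by edgeR on the reads recovered from the deposited values. Relative to shRNA #1, 6 of the 10 transporters were higher with shRNA #2, 2 were lower and 2 did not pass the test. Over all genes, 31.4% were higher and 32.5% lower. The ASAH1 transcript also differed, with a log2 ratio of shRNA #2 to shRNA #1 of -0.89 (adjusted p = 6.84e-08, edgeR), and its part in the transporter values was not tested.

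SLC38A2, the amino acid-responsive importer, differed most, with a log2 ratio of 1.48 (95% interval 1.33 to 1.62, adjusted p = 1.13e-08, edgeR). SLC1A4 followed with 0.69 (0.57 to 0.81, adjusted p = 8.64e-07), then SLC38A1 with 0.51 (0.40 to 0.63, adjusted p = 5.58e-06). The cystine exchanger gene SLC7A11 had a log2 ratio of 0.45 (adjusted p = 7.61e-06), SLC6A9 one of 0.33 (adjusted p = 8.37e-05) and SLC7A5 one of 0.22 (adjusted p = 0.00159). In the other direction, SLC43A1 had a log2 ratio of -1.05 (95% interval -1.18 to -0.92, adjusted p = 7.31e-08), and the heavy chain gene SLC3A2 one of -0.53 (-0.70 to -0.37, adjusted p = 7.97e-05). Thus the heavy chain SLC3A2 differed between the hairpins in the opposite direction from the light chains SLC7A11 and SLC7A5. In contrast, SLC7A7, another light chain and not one of the 10, had a log2 ratio of -0.92 (adjusted p = 3.88e-05, edgeR). For SLC7A6, also a light chain outside the 10 and named after its value was seen, it was 0.12 (adjusted p = 0.118, edgeR).

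For SLC7A1 the log2 ratio was 0.09 (95% interval -0.10 to 0.28, adjusted p = 0.390), and for SLC1A5 it was -0.0075 (-0.085 to 0.070, adjusted p = 0.861). The interval for SLC1A5 left room for a difference of less than 0.1 on the log2 scale in either direction. It does not cover the choice of scaling, and the SLC1A5 log2 ratio was as low as -0.083 under other processing. Past 1.5-fold, 2 transporters were higher with shRNA #2 (SLC38A2 and SLC1A4; 11.0% of all genes) and 1 was lower (SLC43A1; 16.1% of all genes).

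**Figure D3:**
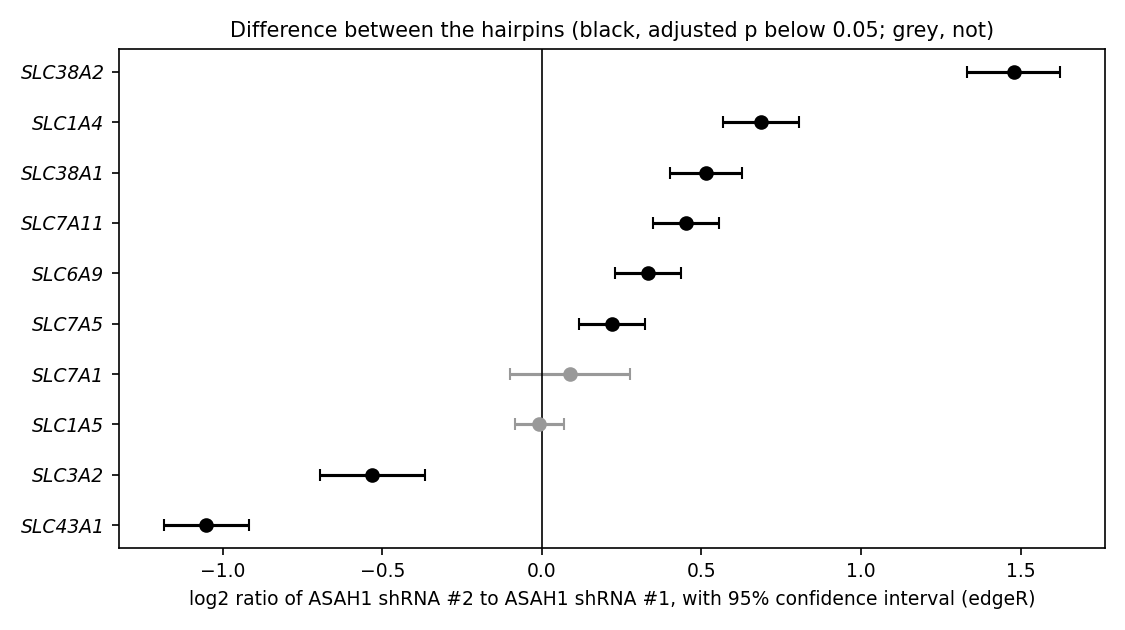
Log2 ratio of each transporter mRNA with ASAH1 shRNA #2 to that with ASAH1 shRNA #1, with the 95% confidence interval from edgeR (3 libraries per hairpin). Black points had an adjusted p below 0.05 and grey points did not: SLC38A2 is farthest to the right (1.48), SLC43A1 farthest to the left (-1.05), and the intervals of SLC7A1 and SLC1A5 include 0.

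To compare genes with each other, levels were also divided by the length of all GENCODE exons of each gene, in kilobases. On this scale (RPKM, the CPM per kilobase), SLC38A2 was the highest of the 10 with NS shRNA (103 ± 8.6, SD, n = 3), followed by SLC1A5 (56.3 ± 0.66), SLC7A5 (50.4 ± 1.93), SLC3A2 (31.9 ± 2.46), SLC38A1 (31.8 ± 1.23), SLC7A1 (21.1 ± 1.75), SLC7A11 (5.20 ± 0.19), SLC43A1 (5.16 ± 0.19), SLC6A9 (4.22 ± 0.095) and SLC1A4 (2.16 ± 0.077). Neighbours in this order did not overlap, except SLC3A2 with SLC38A1 and SLC7A11 with SLC43A1. Such overlap reflects only the spread between libraries. The order also depends on the lengths, which join the exons of all transcripts whether expressed or not, and no other length was tried.

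With shRNA #1, SLC1A5 was the highest (154 ± 1.14), above SLC38A2 (126 ± 7.03), SLC3A2 (111 ± 5.88) and SLC7A5 (106 ± 3.28). The libraries of SLC38A2 and SLC3A2, of SLC3A2 and SLC7A5, and of SLC38A1 and SLC7A1 overlapped, so those neighbours had no clear order. With shRNA #2, SLC38A2 was again the highest (351 ± 19.2), then SLC1A5 (153 ± 2.12), SLC7A5 (123 ± 5.27) and SLC3A2 (77.1 ± 7.27), and no neighbours overlapped. SLC43A1 held the 8th place with NS shRNA and shRNA #1 and the 9th with shRNA #2, below SLC6A9.

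**Figure D4:**
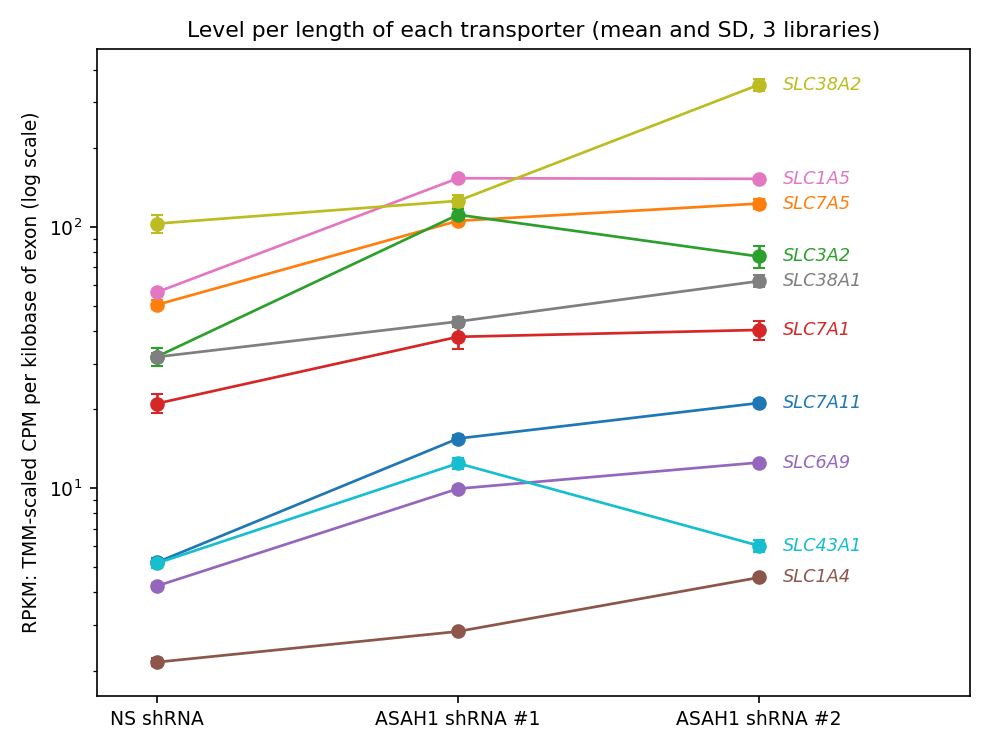
Level of each transporter per length, in TMM-scaled CPM per kilobase of exon (RPKM) on a log scale, in the 3 groups (points and bars, mean and SD of 3 libraries, joined by lines for each gene). SLC38A2 runs from 103 with NS shRNA to 351 with shRNA #2, SLC3A2 peaks with shRNA #1 (111), and SLC43A1 rises with shRNA #1 (12.4) and is at 6.01 with shRNA #2.

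Summed over the 10 genes, the level was 1817 to 1964 CPM with NS shRNA, 3448 to 3588 with shRNA #1 and 4948 to 5279 with shRNA #2. The SLC38A2 mRNA made up 35.5% ± 1.6 (SD, n = 3) of these reads with NS shRNA, 23.1% ± 0.81 with shRNA #1 and 44.5% ± 1.12 with shRNA #2. The SLC3A2 mRNA made up 10.8% ± 1.23, 20.1% ± 1.5 and 9.64% ± 1.18, respectively. So the makeup of the summed reads differed between the hairpins as well as their total.

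Ratios between partners or related genes within a library do not depend on the scaling of libraries, but their size depends on exon lengths. They were picked with the values already known, and with 3 libraries against 3 the smallest p that an exact two-sided permutation test can give is 0.1. SLC3A2 per SLC7A5, on the scale of reads per kilobase, was 0.635 ± 0.072 (SD, n = 3) with NS shRNA, 1.06 ± 0.089 with shRNA #1 and 0.629 ± 0.078 with shRNA #2. All shRNA #1 libraries were above those of both other groups (p = 0.1 each, exact permutation), while NS shRNA and shRNA #2 overlapped (p = 0.9, exact permutation). SLC3A2 per SLC7A11 was 6.14 ± 0.62 with NS shRNA, 7.21 ± 0.58 with shRNA #1 and 3.64 ± 0.40 with shRNA #2, so the heavy chain mRNA was lowest against SLC7A11 in the shRNA #2 libraries. SLC38A2 per SLC38A1 was 3.24 ± 0.15, 2.90 ± 0.045 and 5.65 ± 0.026 in the same order of groups. SLC7A5 per SLC43A1, which relates 2 transporters of large neutral amino acids, was 9.77 ± 0.17, 8.49 ± 0.48 and 20.4 ± 0.49. SLC1A5 per SLC1A4 was 26.1 ± 1.22, 54.4 ± 1.37 and 33.6 ± 1.23.

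A list of 42 other genes for amino acid transporters was then taken, made by function and family, of which 1 was listed under its older symbol (PQLC2). Of the 42, 19 were too low to be tested in either comparison. With shRNA #1, 22 were tested, of which 8 were higher, 8 lower and 6 did not pass the test. With shRNA #2, 23 were tested, of which 8 were higher, 11 lower and 4 did not pass the test. Among all genes, 32.8% were higher and 33.3% lower with shRNA #1, and 33.5% were higher and 33.4% lower with shRNA #2. The median log2 fold change of these other transporters was -0.13 with shRNA #1 and -0.18 with shRNA #2. The count of 11 was 6 without NS shRNA replicate 3, and 7 without NS shRNA replicate 2, shRNA #2 replicate 1 or shRNA #2 replicate 3.

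The other transporters named next are the 3 with the largest called change in each direction among those with a mean of at least 100 normalized counts. Of those that rose with shRNA #1, CTNS, the cystine exporter of lysosomes, had a log2 fold change of 1.00 ± 0.06 (adjusted p = 6.98e-07, limma) and was at 68.0 to 75.4 CPM against 35.2 to 36.9 with NS shRNA. SLC7A2, a cationic amino acid transporter like SLC7A1, followed with 0.95 ± 0.08 (adjusted p = 3.99e-06), and SLC36A1, a proton-coupled transporter of small amino acids found on lysosomes, with 0.70 ± 0.09 (adjusted p = 7.52e-05). Those that fell were SLC38A4, a relative of SLC38A2 (log2 fold change -1.61 ± 0.08, adjusted p = 2.13e-07), SLC43A2, the LAT4 uniporter related to SLC43A1 (-0.93 ± 0.08, adjusted p = 7.99e-06), and the glutamate transporter SLC1A3 (-0.87 ± 0.07, adjusted p = 4.39e-06). With shRNA #2 the corresponding values were -0.17 for CTNS (adjusted p = 0.0271, limma) and 0.49 for SLC1A3 (adjusted p = 0.000197, limma). Both were thus called in opposite directions with the hairpins.

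With shRNA #2 and the same minimum, the glutamate and cysteine transporter SLC1A1 rose most (log2 fold change 1.58 ± 0.17, adjusted p = 1.74e-05, limma), from 1.33 to 1.99 CPM with NS shRNA to 4.36 to 5.23. SLC7A2 followed (1.24 ± 0.08, adjusted p = 3.57e-07), then SLC38A5, a glutamine transporter of the same family as SLC38A1 (0.90 ± 0.20, adjusted p = 0.00214). Of those that fell, SLC38A6 led (-1.66 ± 0.08, adjusted p = 9.50e-08), then SLC43A2 (-1.14 ± 0.10, adjusted p = 2.63e-06) and SLC7A7, a further light chain that joins SLC3A2 (-1.14 ± 0.12, adjusted p = 1.44e-05). Some genes below that minimum, chosen after their values were seen, had larger changes. SLC7A4 had a log2 fold change of 2.92 with shRNA #2 (adjusted p = 2.12e-07, limma), SLC6A14 one of -2.17 (adjusted p = 0.00158) and SLC1A7 one of -1.43 (adjusted p = 0.00197). With shRNA #1 the SLC1A7 value was -1.11 (adjusted p = 0.00364), and SLC6A14 went from 0.347 to 0.912 CPM with NS shRNA to at most 0.0728 CPM, or 3 reads in a library. The mean levels of these genes with NS shRNA were 0.553 CPM for SLC7A4, 0.568 for SLC6A14 and 0.872 for SLC1A7. With each hairpin, some members of the SLC43 and SLC38 families fell while SLC43A1 and SLC38A2 were called higher.

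**Figure D5:**
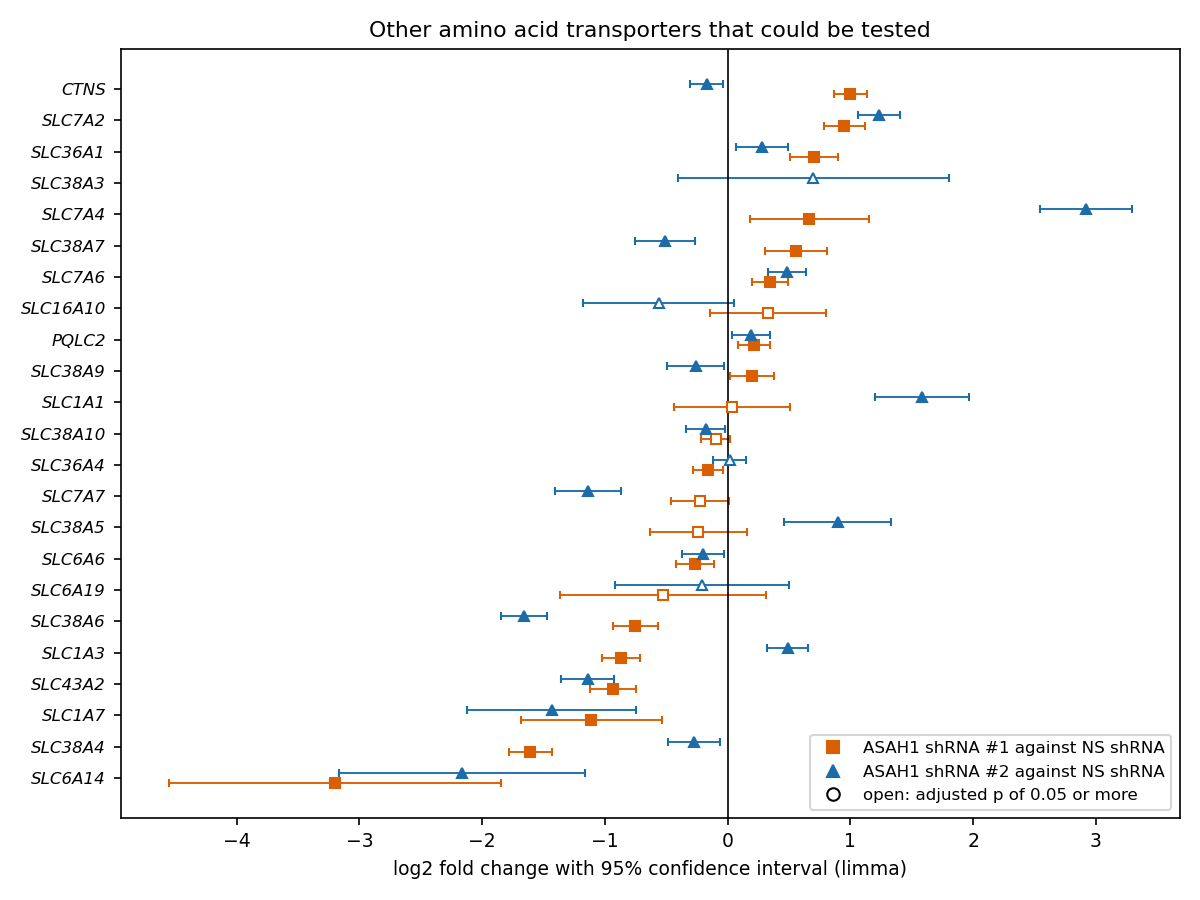
Log2 fold change, with 95% confidence interval from limma, of the other amino acid transporters that could be tested with ASAH1 shRNA #1 (squares) or ASAH1 shRNA #2 (triangles) against NS shRNA, ordered by the shRNA #1 value where there is one. Filled symbols had an adjusted p below 0.05: 8 lie to the right and 8 to the left of 0 with shRNA #1, and 8 to the right and 11 to the left with shRNA #2.

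Among 11631 genes with a mean of at least 100 reads, those with the pattern closest to SLC7A11, SLC7A5 and SLC3A2 were found by the Euclidean distance over the 9 libraries of log2(CPM + 1), here without TMM scaling, relative to the NS shRNA mean. A distance of 0 would be the same pattern. Closest to SLC7A11 were RBPMS (0.297), TRNP1 (0.364), YRDC (0.396), CSRNP1 (0.408) and GAS5 (0.420). SLC7A5 was matched more closely, by ATP2B1 (0.0906), WDR3 (0.0985), ZNF146 (0.175), C17orf51 (0.178) and GFPT1 (0.188). The pattern of SLC3A2, higher with shRNA #1 than with shRNA #2, was closest to those of TRIB3 (0.20), PLIN2 (0.283), ODC1 (0.308), DUSP1 (0.407) and AARS (0.417). Among pairs of the 10 transporters, SLC1A4 and SLC38A1 were nearest to each other (0.245), and SLC7A11 and SLC43A1 were farthest apart (3.16).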

How the data were processed

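Per the labels and the study's methods, mRNA was sequenced as single-end strand-specific libraries, although the design text names ribosomal depletion. The authors used Trimmomatic 0.36 for trimming, STAR 2.7.1a for alignment to hg38, HTSeq for strand-specific counting and DESeq2 1.28. The methods also name an RSEM and edgeR pipeline. The 2 deposited tables of 6 libraries hold a normalized signal: per gene and library, reads over a DESeq2 size factor. The log2 fold change with its standard error, the Wald score and the p-value with its adjustment, which the authors computed in DESeq2 and deposited too, were not used. All signals were whole reads (100% within 0.01), which were recovered. On those reads edgeR called 9476 genes with shRNA #1 and 9554 with shRNA #2, where limma on the deposited values called 9479 and 9538. 3 of the 10 genes (SLC7A5, SLC1A4 and SLC38A1) overlap another GENCODE gene on their strand.

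R 4.3.3, limma 3.58.1 (with trend, log2(value + 1), genes with a mean of at least 10, two-sided), edgeR 4.0.16 (quasi-likelihood, TMM, all 9 libraries, hairpin against hairpin) and Python 3.11.15 were used, with Benjamini-Hochberg adjustment over all genes at 0.05. Fold changes of low genes are understated on the log2(value + 1) scale. The fits were tested on simulated data with far fewer changed genes than here, so scaling under such broad change was not checked. The genes and lists were chosen with earlier results of these data known. Named were the 10 genes, ASAH1, the copies of SLC7A5, the top 3 other transporters per comparison and direction (mean at least 100), and the 5 genes nearest in pattern to SLC7A11, SLC7A5 and SLC3A2. Alternatives were other pseudocounts, filters and scalings, limma without trend, edgeR and DESeq2 1.42.0 on the reads, 1 fit of all libraries, a replicate block, a 1.5-fold rule and each library left out.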

Additional observations from a re-analysis of the deposited data

Results flagged for a closer look

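For 8 of the 10 transporters, the change seen with ASAH1 shRNA #2 differed from that with ASAH1 shRNA #1 in the direct test of the hairpins (edgeR, adjusted p below 0.05). As log2 ratios, with shRNA #1 as the base, the values were 1.48 for SLC38A2, 0.69 for SLC1A4, 0.51 for SLC38A1, 0.45 for SLC7A11, 0.33 for SLC6A9, 0.22 for SLC7A5, -0.53 for SLC3A2 and -1.05 for SLC43A1. In each case the 3 libraries of one hairpin lay wholly above the 3 of the other. Over all genes, 31.4% were called higher and 32.5% lower with shRNA #2 in that test, and 32.8% lay wholly higher and 34.5% wholly lower.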

How the results depend on the processing

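Apart from the 1.5-fold rule, which left 7 of the 10 transporters higher with shRNA #1 and 9 with shRNA #2, the alternatives kept the direction and call of each of the 10 with shRNA #1 (160 of 160 values), and of 9 of the 10 with shRNA #2 (155 of 160). The exception with shRNA #2 was SLC43A1, whose call was lost under 5 alternatives, among them the replicate block (adjusted p = 0.0753, limma). Between the hairpins, with the same exception, 157 of 160 values kept theirs. The log2 ratio of SLC1A5, which was not called, changed sign with DESeq2 size factors (0.0044) and with all genes with reads kept (0.0045). It ran from -0.018 to 0.0024 with single libraries left out (above 0 without shRNA #2 replicate 3) and from -0.083 to 0.0045 over the other alternatives. Asking for 1.5-fold as well left 2 transporters higher and 1 lower with shRNA #2 than with shRNA #1, since this rule is stricter. Among the 22 other transporters tested with shRNA #1, it left 4 higher (15.0% of all genes) and 6 lower (2001 of 14341 genes). Among the 23 tested with shRNA #2, it left 4 higher (14.8% of all genes) and 5 lower (17.6% of all genes). Those lower with shRNA #2 (11) were also 7 in limma without the trend, 6 with the replicate block and 6 to 9 with single libraries left out, and the cause was not tested. Replicate numbers are shared across groups, but the rule for pairing, a correlation over 0.1 of the deviations from the group means in every pair, was not met (Pearson r across genes -0.27 to -0.10 for NS shRNA and shRNA #1, -0.30 to -0.09 for NS shRNA and shRNA #2, and 0.05 to 0.20 between the hairpins). Each library correlated best with its own number in 0 of 6, 0 of 6 and 6 of 6 cases, a hint from the data only, so the numbers were not taken as pairs. Depth limited none of the 10 transporters (at least 457 reads in every library) but left 19 of the 42 others untested.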
